A study of Solanum lycopersicum with 2 samples.

Results

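Among 22315 transcribed loci of young primary tomato (Solanum lycopersicum) leaves, 4512 carried no gene, and 3754 of these had no strand in the deposited table. The loci described here are the 1654 of them that span at least 300 bp and lie less than 2000 bp from, or overlap, the nearest gene locus on the same chromosome. No expression value entered this choice. The 2 libraries came from seedlings, 1 from overexpression of SlRBZ transgenic plants (the library titled OV-5-1) and 1 from Wild type plants (CK-1). The labels give neither the promoter of the transgene nor the number of plants in a library, and the design text mentions duplicates, but 1 library per genotype was analysed here, so no difference has a replicate check and none carries a p-value. Values are as deposited, in FPKM, which divides the fragments of a locus by a length in kilobases and by the library total in units of 1000000. For unstranded gene-free loci of at least 300 bp this was taken as an effective length, the span less a fitted offset. The length used for gene loci is not given in the sources used here. Coordinates are those of the table, whose genome build is not given there either.

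Where a library carries no strand information, transcript assemblers take the strand of a locus from the splice junctions its reads cross, and a locus without junctions usually gets none. Reads of this kind close to a gene can come from several sources, among them introns of transcripts not yet spliced, ends of a gene that the annotation stops short of, and separate transcripts. Plant genes commonly use more than 1 polyadenylation site, so that part of their 3′ end can fall outside the annotated gene, and alternative start sites do the same at the 5′ end. An end that belongs to a gene would change between genotypes as the gene does, as long as the use of these sites stays the same. A locus that does not follow its gene may thus still belong to it. The comparison of the locus with its neighbour asks whether the locus follows the gene.

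By position, 1051 of the 1654 loci (63.5%) lay wholly inside the span of their gene, 24 crossed an edge of it, 345 lay beyond its 3′ end and 234 beyond its 5′ end. The loci spanned 300 to 2792 bp with a median of 490.0 bp, against a median of 4016 bp for gene loci. Taken once per locus inside, so that a gene with several loci counts several times, the median span of the gene was 7092 bp. The 1654 loci fell to 1307 gene loci, of which 1057 had a single locus and 250 had several, up to 9. Loci of the same gene are therefore not independent of each other. Beyond the 3′ end 17 loci lay less than 50 bp from the gene, 105 between there and 200 bp and 223 farther off, and beyond the 5′ end 10, 67 and 157.

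The loci were sparsely covered. Low FPKM values are multiples of what 1 fragment is worth, and from these multiples the scaling totals came to 14254300 fragments for the overexpressor and 7467560 for wild type. At a tolerance of 0.05 fragments, 89.3% and 90.2% of the values under 15 fragments were whole. A locus held a median of 18 fragments in the overexpressor, against 9 in wild type, for which exact 95% Poisson intervals run from 10.7 to 28.4 and from 4.12 to 17.1 fragments. Such intervals cover counting error only. In FPKM the median locus stood at 4.92 in the overexpressor and 3.88 in wild type, against medians of 15.3 and 15.6 FPKM for gene loci. At least 10 fragments (9.5 or more before rounding) were present in 1 or both libraries at 1606 of the 1654 loci. This held in the overexpressor alone at 798 loci, in wild type alone at 100 and in both at 708. Nearly all of the loci thus reached 10 fragments in at least 1 library. Most of those that reached it in only 1 library did so in the overexpressor, the deeper of both. Loci taken in through 1 library are selected for a high count there. Counts of loci past a fold carry this selection, and so do differences between a locus and its gene. Genes of the photosynthetic leaf, RBCS and CAB genes and PSBO, were abundant in both libraries, and all 12 such loci were lower in the overexpressor as deposited, with differences of −4.25 to −1.91 in log2(FPKM + 1), and 3 of them were lower at equal sums of all loci. They summed to 40507 FPKM in the overexpressor and 261129 in wild type. Of the fruit and pollen genes searched by symbol, E4 was found, at 21.4 FPKM in the overexpressor and 38.6 in wild type. The part of these differences and of the depth in what follows was not tested.

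**Figure D1:**
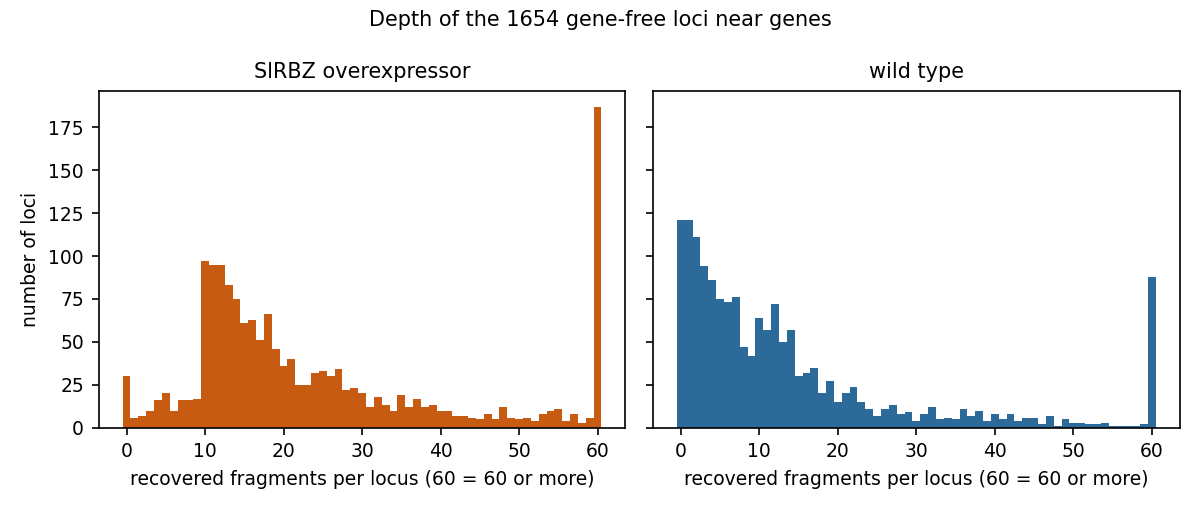
Recovered fragments per locus (x axis, loci with 60 or more in the last bar) against the number of loci (y axis) for the 1654 gene-free loci near genes, in the SlRBZ overexpressor (left) and wild type (right). At 1606 of the loci at least 10 fragments are present in 1 or both libraries, and the median locus holds 18 in the overexpressor and 9 in wild type.

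Among pairs above 0 in both libraries, the widest split between a locus and its gene was at the gene locus Solyc03g033560.2(RANBP). SlRBZ encodes a protein with a RanBP-type zinc finger, and the table writes RANBP in brackets after this identifier and after no other. It does not say that the locus is SlRBZ. The gene locus (chromosome 3, minus strand, 9384618 to 9391509) stood at 939 FPKM in the overexpressor and 31.2 in wild type, a difference of 4.87 in log2(FPKM + 1), 29.2-fold, which placed it at rank 57 of 17631 gene loci. All differences and folds here are on this scale, which understates the change of low loci, and a difference of 1 or more counts as 2-fold. The 2 loci inside it did not go along. The longer, of 1009 bp (9388628 to 9389636), read 4.85 FPKM in the overexpressor (95% Poisson interval 3.67 to 6.30) and 8.10 in wild type (5.99 to 10.7), a difference of −0.64. The shorter, of 432 bp (9390735 to 9391166), read 2.41 FPKM in the overexpressor (1.04 to 4.75) and 11.5 in wild type (7.02 to 17.8), a difference of −1.87. The longer locus rests on 56 fragments (overexpressor) and 49 (wild type), the shorter on 8 and 20.

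Between these 2 lie a pair of gene-free loci that fall short of 300 bp. The one of 257 bp read 14.5 FPKM in the overexpressor and 27.7 in wild type, and the one of 205 bp read 32.7 and 164.8 FPKM on 2.80 and 7.38 recovered fragments, where the short effective length makes FPKM unreliable. All 4 gene-free loci inside this gene were thus lower in the overexpressor as deposited, while the gene itself was far higher. When wild type was scaled to equal sums of all loci the pair of at least 300 bp turned higher, by 0.44 and 1.502, under a shift of 2.25 in the median of all loci. They stayed below 0 under the other scalings tried. The neighbouring gene Solyc03g033550.2 (9382901 to 9384358, plus strand) read 3.07 FPKM in the overexpressor and 2.09 in wild type. The table gives no exons, so whether the gene-free loci fall in introns cannot be read from it.

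**Figure D2:**
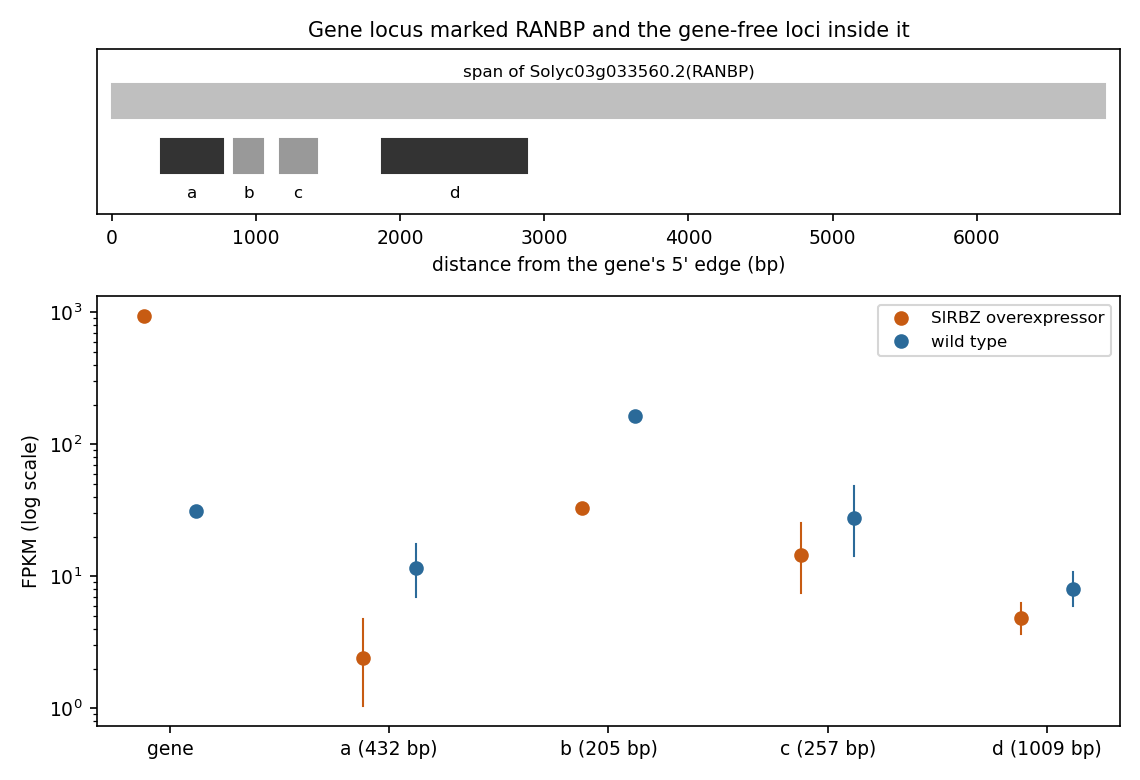
Top, the gene locus Solyc03g033560.2(RANBP) and the 4 gene-free loci inside it (a to d, dark where they span at least 300 bp), by distance in bp from the 5′ edge of the gene. Bottom, FPKM on a log axis in the SlRBZ overexpressor (orange, left of each pair) and wild type (blue), with 95% Poisson intervals for a, c and d. The gene stands at 939 against 31.2 FPKM, whereas each gene-free locus is lower in the overexpressor.

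Other strongly changed genes differed in how far the loci inside them went along. In the overexpressor, 12 gene loci that stood at least 4-fold above wild type held 15 loci inside. Of these 15 loci, 9 shared the sign of the gene, 8 were themselves at least 2-fold higher, and 1 was at least 2-fold lower, which is the shorter RANBP locus. The background over all loci of the table averaging 1 FPKM or more was 14.4% past 2-fold upwards and 15.2% downwards. Over the 1001 loci inside genes with that mean it was 27.9% upwards and 12.2% downwards. The median difference of the 15 loci was 1.32, against 2.79 over the 12 genes. Solyc10g008890.2 is an example, at 18.4 FPKM in the overexpressor and 1.52 in wild type, with its inner locus at 4.83 and 0.307 FPKM (30 fragments and 1). Solyc03g005920.2 is another, at 298 FPKM in the overexpressor and 25.4 in wild type, with 2 inner loci that read 5.96 and 7.22 FPKM in the overexpressor, against 4.63 and 11.2 in wild type. Of 38 loci inside 22 gene loci at least 4-fold lower, 28 shared the sign, but 7 were at least 2-fold lower and 2 at least 2-fold higher. Genes with several loci weigh more in these counts, and 8 of the 38 lie in a single joined gene locus. The median difference of these 38 loci was −0.44, against −2.37 over the 22 genes.

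The joined locus Solyc12g042100.1,Solyc12g042110.1,Solyc12g042120.1 on chromosome 12 shows this gap. It stood at 423 FPKM in the overexpressor and 6285 in wild type, a difference of −3.89. The 8 loci inside its span differed by −0.78 to 0.41. The deepest of them (42585993 to 42586915) read 9.31 FPKM in the overexpressor and 15.9 in wild type, on 96 and 86 fragments. A locus 716 bp beyond the 5′ end of the same joined gene (42575850 to 42576676) read 3.91 FPKM in the overexpressor and 29.4 in wild type, a difference of −2.63, closer to that of the gene. Since the joined locus holds 3 genes, the table does not show which of them any of these loci belongs to.

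Over all loci near genes with a mean of at least 1 FPKM (1592 of 1654), 413 (25.9%) exceeded wild type at least 2-fold in the overexpressor and 211 (13.3%) fell short of it at least 2-fold. The background over all 22013 loci of the table with that mean was 14.4% higher and 15.2% lower (29.6% in either direction), and over gene loci 11.6% higher and 15.0% lower (26.6%). The excess of higher loci sat in the sparse ones. Among the 742 loci with 30 or more fragments over both libraries, 741 had that mean, and 111 (15.0%) were higher and 98 (13.2%) lower, close to the background. Below 30 fragments, 302 of 851 (35.5%) were higher and 113 (13.3%) lower. The median difference was 0.27 over all loci near genes and 0.01 over those with 30 or more fragments, against −0.02 for all loci of the table. At 104 loci wild type was listed at 0 and the overexpressor was not, and at 10 loci the reverse held. The split followed the scaling too, and that of gene loci moved with it. At equal upper quartiles of gene loci, 484 loci near genes (30.5%) were higher and 158 (9.96%) lower, against 15.1% and 10.8% of gene loci. Scaled without the 100 most abundant gene loci the counts were 635 (40.4%) and 80 (5.09%), against 26.0% and 6.24% of gene loci, and at equal sums 1372 (92.4%) and 0, against 94.1% and 0.220%. These counts come from whole leaves, in which fewer cells of a type and less RNA per cell cannot be told apart.

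Each locus was then set beside its nearest gene. Of 1589 pairs in which both had a mean of at least 1 FPKM, 957 (60.2%) had differences of the same sign, with a Pearson r of 0.32 and a Spearman rho of 0.32 across pairs. The same loci were also set beside a second gene, called here the gene on the other side. For a locus overlapping a gene, this is the nearest gene locus that does not overlap it, on either side. Of the 1580 such pairs, 994 are of loci inside a gene. No limit of distance was set for the second gene, so the 2 comparisons differ in distance too. The sign was the same in 799 of the 1580 pairs (50.6%), with an r of 0.05 and a rho of 0.04. Gene loci set beside their nearest gene locus less than 2000 bp away had the same sign in 52.9% of 4888 pairs, with an r of 0.10. All points of these correlations share the same 2 libraries, loci of the same gene share that gene, and no p is given for them. The r for the nearest gene ran from 0.29 to 0.42 over the alternative settings, while that for the gene on the other side ran from 0.03 to 0.10.

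In these 1589 pairs the nearest gene differed at least 2-fold in 359. Of the 623 loci that differed at least 2-fold, 186 had such a gene, and in 142 of these 186 the direction was the same. For the gene on the other side, 95 of 172 such pairs had the same direction. Of the 131 pairs whose gene was higher by that margin, the locus went up in 73 (55.7%) and down in 10, and the median locus differed by 1.28. Of the 228 pairs whose gene was lower, it went down in 69 (30.3%) and up in 34 (14.9%), and the median locus differed by −0.40. Of the 1230 pairs whose gene differed by less, the locus was higher in 306 (24.9%) and lower in 131 (10.7%). Loci that share a gene count as a pair each.

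By side of the gene, r was highest beyond the 5′ end. For 230 loci there, r was 0.59 and rho 0.55, and 66.1% had the sign of the gene. With the gene on their other side r was 0.15 and rho 0.20, and 58.3% had the same sign. In 32 of these pairs both were at least 2-fold different, and in 31 of the 32 they went the same way. The exception lies on chromosome 9 (63549719 to 63550244), 280 bp from Solyc09g082390.1, and reads 2.575 FPKM in the overexpressor and 0.4095 in wild type (12 fragments and 1), where the gene reads 85.8 and 257 FPKM. For 338 loci beyond the 3′ end, r was 0.33 and rho 0.25, with 58.0% of the same sign and 38 of 51 pairs of 2-fold differences in the same direction, while the gene on the other side gave an r of 0.08 and the same sign in 48.4%. For 998 loci inside the gene span, r was 0.28 and rho 0.32, with the same sign in 599 pairs and 73 of 102 such pairs in the same direction, while the gene on the other side gave an r of 0.02 and the same sign in 49.6%. The 23 loci across an edge had 10 pairs of the same sign and a single pair in which both differed 2-fold, in opposite directions.

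With 30 or more fragments the order of r was the same. It was 0.62 beyond the 5′ end (125 loci), 0.44 beyond the 3′ end (179 loci) and 0.36 inside (421 loci). All 16 pairs of 2-fold differences beyond the 5′ end then went the same way, 23 of 27 beyond the 3′ end and 27 of 32 inside. At 200 bp or farther from the gene, r was 0.60 on the 5′ side (154 loci) and 0.26 on the 3′ side (216 loci). Nearer than 200 bp it was 0.59 on the 5′ side (76 loci) and 0.46 on the 3′ side (122 loci). Without the largest single difference (chromosome 1, 76441758 to 76442081), r on the 3′ side was 0.34. Over the alternative settings r ran from 0.48 to 0.67 on the 5′ side, from 0.29 to 0.48 on the 3′ side and from 0.22 to 0.36 inside. The difference between the sides was not tested, since genes and loci are no replicates of a genotype.

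**Figure D3:**
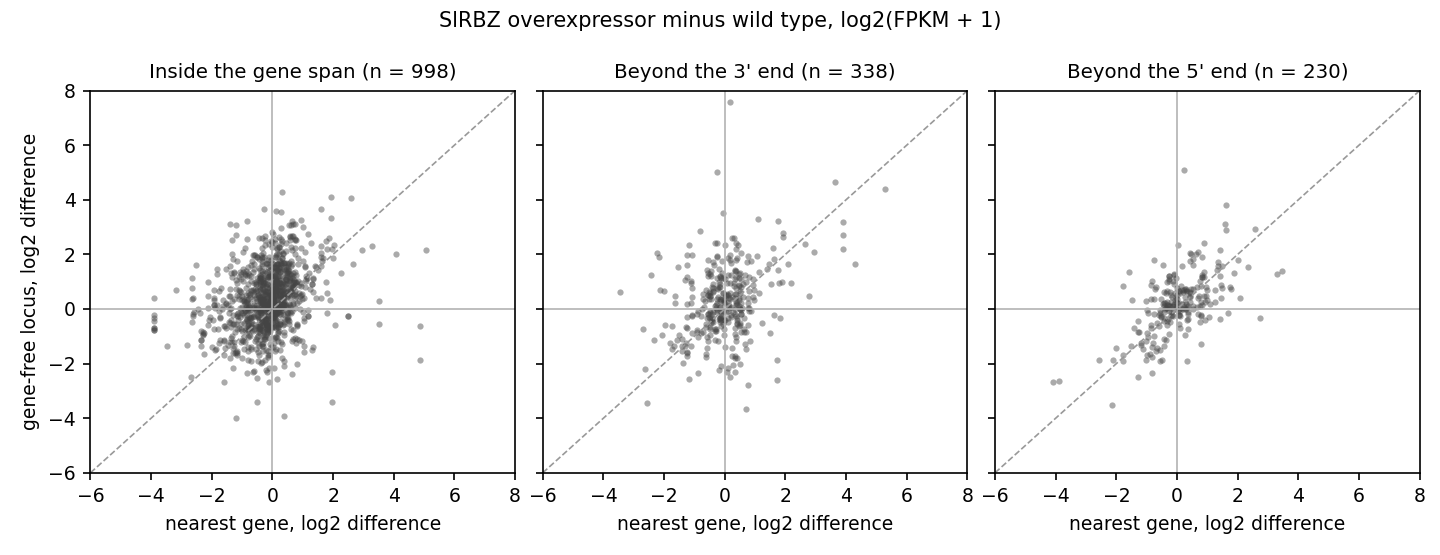
Difference in log2(FPKM + 1), SlRBZ overexpressor minus wild type, of the nearest gene (x axis) and of the gene-free locus (y axis), 1 point per pair, for loci inside the gene span, beyond its 3′ end and beyond its 5′ end. The dashed line marks equal differences, to which the 230 loci beyond the 5′ end keep closest (r of 0.59, against 0.33 and 0.28).

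By distance, the r was 0.27 for 1021 overlapping loci, 0.44 for 308 loci apart from the gene by less than 500 bp, 0.39 for 134 from there to under 1000 bp and 0.40 for 126 from there to under 2000 bp. Of the unstranded gene-free loci 2000 bp or more from a gene, 304 under 10000 bp away had an r of 0.27 and 408 farther away an r of 0.05. The share of pairs with the same sign was 59.6% for overlapping loci, then 64.0%, 57.5% and 58.7% in the 3 distance ranges under 2000 bp, 60.2% under 10000 bp and 52.9% beyond. The 3 loci just inside the limit of 2000 bp included 1 that went with its gene and 2 that did not, and those just outside lay at 2010, 2011 and 2012 bp. The locus at 1991 bp (chromosome 11, 23879162 to 23879558) read 37.4 FPKM in the overexpressor and 124 in wild type, and its gene Solyc11g039470.1 read 92.6 and 323 FPKM. The locus at 1996 bp (chromosome 12, 46838003 to 46839914) read 2.34 FPKM in the overexpressor and was listed at 0 in wild type, and its gene Solyc12g049620.1 read 34.5 and 45.2 FPKM. The locus nearest to the limit (chromosome 9, 49797302 to 49797842) read 8.26 and 15.8 FPKM, and its gene Solyc09g059300.1 14.3 and 8.82. The last 2 thus differed from their gene in sign. The locus at 2010 bp (chromosome 1, 78668564 to 78668948) read 12.8 and 18.0 FPKM, and its gene Solyc01g095710.2 8.25 and 8.75. At the span limit, 3 loci of 300 bp read 2.78 to 14.6 FPKM in the overexpressor and 1.33 to 15.9 in wild type, and the 3 loci of 299 bp just short of it 7.01 to 8.41 and 0 to 2.68.

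**Figure D4:**
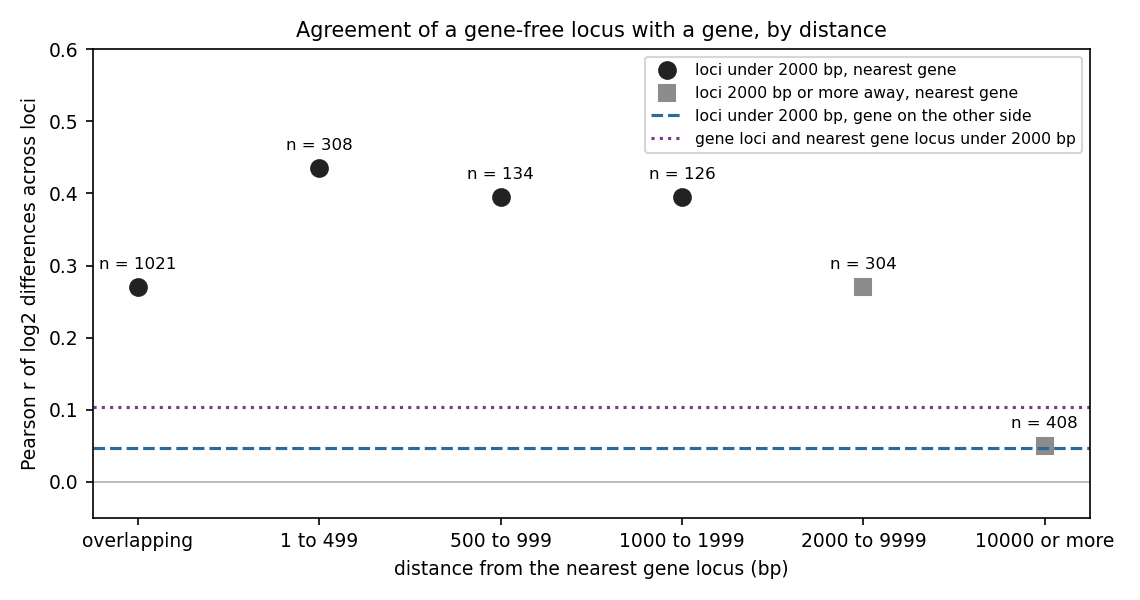
Pearson r across loci between the difference of a gene-free locus and that of its nearest gene (y axis), by distance in bp (x axis), with the number of pairs above each point. Lines mark loci under 2000 bp with the gene on their other side (r of 0.05) and gene loci with their nearest gene locus (r of 0.10). For overlapping loci the gene on the other side is the nearest gene locus that does not overlap them.

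Loci near 2 genes that had moved apart were set beside both. There were 34 loci whose nearest gene and gene on the other side differed at least 2-fold in opposite directions. Of these, 24 had the sign of the nearer gene and 10 that of the farther. Only 17 of the 34 lay outside genes, between the 2, and 13 of these had the sign of the nearer and 4 that of the farther. A further 15 lay inside the nearer gene, 9 with its sign and 6 with that of the farther. Of the 34, 18 were themselves at least 2-fold different, and 15 of the 18 went with the nearer gene. Scaled without the 100 most abundant gene loci, 39 loci had such a pair of genes, and 56.4% had the sign of the nearer, close to an even split. Among loci with both flanking genes less than 2000 bp away, r was 0.44 with the nearer (102 pairs) and 0.20 with the farther (99 pairs).

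In level, the loci stood below their genes. FPKM is per length, so the levels can be set side by side, though the length used for gene loci is not given. The median of log2((locus + 1)/(gene + 1)) was −1.60 in the overexpressor and −2.00 in wild type. Inside genes it was −1.84 in the overexpressor and −2.33 in wild type, beyond the 3′ end −0.99 and −1.05, and beyond the 5′ end −0.79 and −0.82. A locus stood above its gene in both libraries in 23 of 998 pairs inside, in 58 of 338 beyond the 3′ end and in 36 of 230 beyond the 5′ end. Across loci, level followed the level of the gene with a rho of 0.34 in the overexpressor and 0.41 in wild type on the 5′ side. Inside genes rho was 0.30 in the overexpressor and 0.32 in wild type. On the 3′ side rho was 0.17 in both libraries, and it was −0.03 and 0.01 for loci 2000 bp or more away.

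Loci inside genes were shifted upwards against their genes in the overexpressor as deposited. Of the 1654 loci, 798 reached 10 fragments in the overexpressor alone and 100 in wild type alone. This selects loci, and not their genes, for high values in the overexpressor, and its part in the shift was not tested. The median of locus minus gene difference was 0.50 inside, 0.22 beyond the 3′ end and 0.17 beyond the 5′ end, and with 30 or more fragments it was 0.34 inside, 0.05 beyond the 3′ end and 0.04 beyond the 5′ end. At equal sums the shift inside was −0.36, and under the other settings that kept such loci it ran from 0.28 (pseudocount of 5) to 0.62 (pseudocount of 0.1). A factor on wild type enters locus minus gene only through the pseudocount and the filter on the mean. The value at equal sums is thus no separate measure of the shift. It was larger beside abundant genes. Over all positions it was 0.74 where the gene had a mean of 100 FPKM or more (188 pairs, gene median −0.73, locus median −0.08), 0.43 between 10 and 100 FPKM and 0.09 under 10 FPKM. The sign was shared in 93 of 188 pairs, in 578 of 964 and in 286 of 437, in the same order. Summed over the loci inside, 2107 fragments per 1000000 were found in the overexpressor and 2005 in wild type. Beyond the 5′ end the sums were 665 in the overexpressor and 801 in wild type, and beyond the 3′ end 999.5 and 998.5.

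Loci inside the same gene went together more closely than they went with the gene. In 148 genes with several such loci of mean 1 FPKM or more, the first and second along the chromosome had an r of 0.66, a rho of 0.60 and the same sign in 72.3%. Of 40 pairs in which both differed at least 2-fold, 36 had the same direction. In the same 148 genes the first locus and the gene had an r of 0.13, a rho of 0.20 and the same sign in 54.1%. Among 53 genes with several loci of 30 or more fragments, the r between loci was 0.66. The r with the gene was not computed for these 53 genes. Over all 421 loci inside genes with 30 or more fragments it was 0.36. Both loci of such a pair share the gene, the libraries and their depth, so this is a description. Both were also taken in through the same selection for a high count, and the gene was not. The part of this selection in the higher r between loci was not tested. The pair inside ARF13-1, an auxin response factor gene, is an example in which the gene agrees as well. Its 2 loci (chromosome 5, 64572762 to 64573081 and 64573180 to 64573620) read 5.79 and 5.51 FPKM in the overexpressor, against 2.21 and 2.21 in wild type, on 10 and 19 fragments against 2 and 4. The gene read 15.8 FPKM in the overexpressor and 6.79 in wild type.

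**Figure D5:**
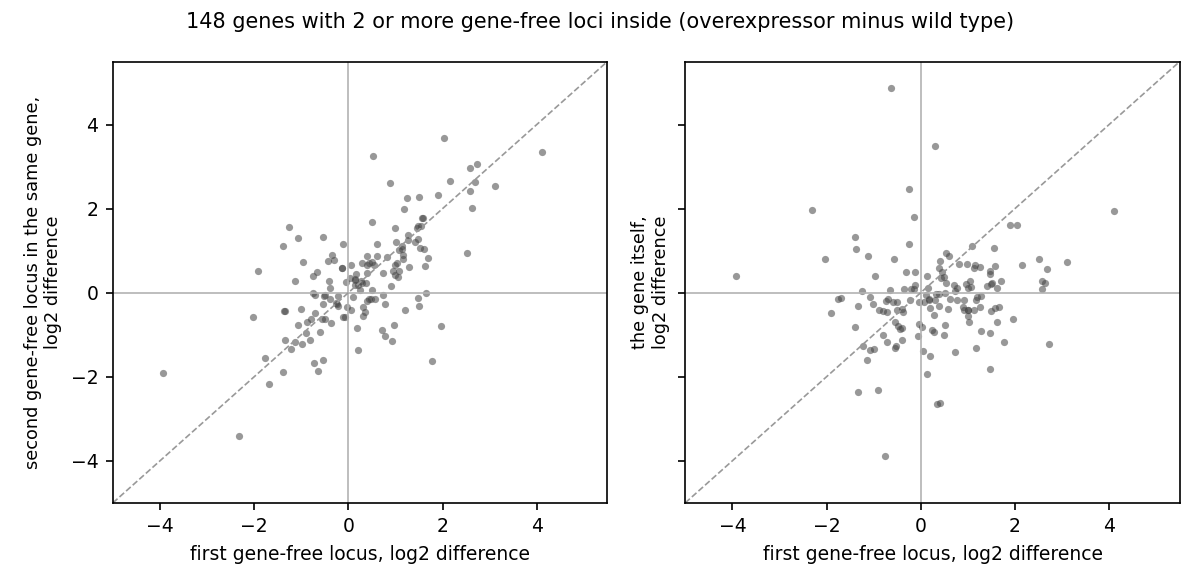
Difference in log2(FPKM + 1), SlRBZ overexpressor minus wild type, of the first gene-free locus inside a gene (x axis) against that of the second locus in the same gene (left) and against that of the gene (right), for 148 genes. The points follow the dashed line of equal differences on the left (r of 0.66) and spread around it on the right (r of 0.13).

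The 16 largest differences, 8 each way, were of 3 kinds. The first kind rested on a value of 0 in wild type and a gene that hardly differed. A 324 bp locus on chromosome 1 (76441758 to 76442081), 91 bp beyond the 3′ end of Solyc01g090990.2, read 190.7 FPKM in the overexpressor, about 339.8 fragments, and was listed at 0 in wild type, where 3 fragments would be 3.21 FPKM. Its gene read 12.1 FPKM in the overexpressor and 10.8 in wild type. Loci on chromosome 2 (33841665 to 33841983, 110 bp beyond the 5′ end of Solyc02g069350.2) and chromosome 6 (28459753 to 28460084, 610 bp beyond the 3′ end of Solyc06g048930.2) read 33.3 and 31.6 FPKM in the overexpressor and were listed at 0 in wild type. The first of these genes read 56.7 FPKM in the overexpressor and 47.7 in wild type, and the second 5.01 and 6.15. A locus inside Solyc04g072640.2 (chromosome 4, 57201368 to 57201709) read 18.6 FPKM and was listed at 0 in wild type, with its gene at 14.7 and 11.5 FPKM. No fold is given for these, since a value listed at 0 may stand for an estimate that failed. Wild type was listed at 0 in 5 of the 8 largest positive differences, and the overexpressor in 5 of the 8 largest negative ones.

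In the second kind the gene moved as well. A 530 bp locus on chromosome 3 (59552207 to 59552736), 471 bp beyond the 3′ end of Solyc03g115920.2, read 62.5 FPKM in the overexpressor and 2.02 in wild type (295 fragments and 5), with a difference of 4.39. Its gene read 223 and 4.73 FPKM, a difference of 5.29. A locus 79 bp beyond the 3′ end of Solyc09g064930.2,Solyc09g064940.2 (chromosome 9, 58088765 to 58089136) read 23.9 FPKM in the overexpressor and was listed at 0 in wild type, with the joined gene locus at 139.8 and 10.3 FPKM. Inside Solyc07g062850.2,Solyc07g062860.2 a locus (chromosome 7, 62722758 to 62723153) read 51.6 and 2.04 FPKM, with its gene locus at 46.5 and 11.4. Inside Solyc09g065870.2 a locus (chromosome 9, 59744075 to 59744642) read 28.0 and 0.726 FPKM, with its gene at 54.7 and 8.29. Among the lower loci, one 186 bp beyond the 3′ end of Solyc08g069020.1 (chromosome 8, 55314205 to 55314507) read 1.35 FPKM in the overexpressor and 24.5 in wild type, and its gene 1.07 and 11.2. A locus 1291 bp beyond the 5′ end of Solyc02g043940.1 (chromosome 2, 23332959 to 23333312) was listed at 0 in the overexpressor and at 10.4 FPKM in wild type, with its gene at 4.32 and 22.3. A locus inside Solyc11g044230.1 (chromosome 11, 35164409 to 35164988) was listed at 0 in the overexpressor and stood at 14.8 FPKM in wild type, with its gene at 130.3 and 298.

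In the third kind the locus was lower while its gene differed little or was higher. A locus 1430 bp beyond the 3′ end of Solyc11g056620.1 (chromosome 11, 44832314 to 44832711) read 1.41 FPKM in the overexpressor and 15.5 in wild type, with its gene at 3.93 and 1.88. A further 3 lay inside genes and were listed at 0 in the overexpressor. In the order given here they rest on 12, 9 and 12 fragments in wild type. One lies in Solyc04g049970.2 (chromosome 4, 44106368 to 44106679) and stood at 14.2 FPKM in wild type, with its gene at 12.2 FPKM in the overexpressor and 9.07 in wild type. One in Solyc04g063230.2 (chromosome 4, 54495167 to 54495489) stood at 9.72 FPKM in wild type, with its gene at 55.7 and 79.1. One in the joined locus Solyc08g016210.2,Solyc08g016220.1,Solyc08g016310.2 (chromosome 8, 7097974 to 7098340) stood at 9.57 FPKM in wild type, with its gene locus at 9.74 and 1.75.

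The loci with the highest mean were no more uniform. A 322 bp locus 84 bp beyond the 3′ end of Solyc01g105720.2 (chromosome 1, 85549888 to 85550209) read 271 FPKM in the overexpressor and 187 in wild type, far above its gene at 17.0 and 16.4. Likewise a locus 797 bp beyond the 3′ end of Solyc10g083160.1 (chromosome 10, 62360670 to 62361091) read 136 and 127 FPKM, with its gene at 9.27 and 11.9. Inside Solyc06g051780.2,Solyc06g051790.2 a locus (chromosome 6, 31936394 to 31936853) read 309.96 FPKM in the overexpressor and 86.7 in wild type on 1153 and 169 fragments, a difference of 1.83, whereas its gene locus read 918 and 1240 FPKM, a difference of −0.43. Inside Solyc03g111810.2 a locus (chromosome 3, 56489868 to 56490265) read 79.3 and 164 FPKM, with its gene at 100.1 and 142. The fifth, 99 bp beyond the 3′ end of Solyc10g086150.1 (chromosome 10, 64402686 to 64403081), read 61.2 FPKM in the overexpressor and 156 in wild type, a difference of −1.34, and its gene read 624 and 1554 FPKM, a difference of −1.31. The remaining one is the chromosome 1 locus listed at 0 in wild type.

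The Solyc10g086150.1 locus is also among the 6 that matched a changed gene most closely. A locus 409 bp beyond the 3′ end of Solyc02g094210.1 (chromosome 2, 49390035 to 49390352) read 24.7 FPKM in the overexpressor and 60.8 in wild type, with its gene at 8.21 and 21.4. A 1525 bp locus 888 bp beyond the 5′ end of Solyc07g032170.2,Solyc07g032180.2 (chromosome 7, 35648573 to 35650097) read 6.99 and 18.0 FPKM on 132 and 178 fragments, with its gene locus at 10.8 and 26.0. Inside Solyc02g090060.1 and Solyc10g012060.2 the loci differed by 1.15 and 1.56 and the genes by 1.14 and 1.60, on 12 and 11 fragments in the overexpressor, against 2 and 1 in wild type. The sixth is the shorter ARF13-1 locus.

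Of the 1654 loci, 57 lay nearest to a gene with a symbol, and 52 of these pairs had both means at 1 FPKM or more. The genes are of mixed function. Among the 52, no locus lay next to a gene listed by symbol for light harvesting (14 gene loci), photosystems and carbon fixation (14), carotenoids and isoprenoids (22), pathogenesis and wounding (11), heat shock (14) or cell walls (18). The gibberellin list (9 gene loci) had 1 locus, inside SPY, the gene of a repressor of gibberellin responses. It read 3.98 FPKM in the overexpressor and 0.542 in wild type on 14 fragments and 1, with SPY itself at 17.4 and 17.5. The ethylene list (23 gene loci) had 2, next to the CTR1-like kinase genes CTR3 and CTR4. The CTR3 locus read 5.07 FPKM in the overexpressor and 10.7 in wild type, with the gene at 9.03 and 9.09. The CTR4 locus read 3.33 FPKM in the overexpressor and was listed at 0 in wild type, with the gene at 14.2 and 10.02. That list does not hold 2 other genes of ethylene signalling that had a locus. Inside NEVER-RIPE, an ethylene receptor gene, a locus (chromosome 9, 62636792 to 62637565) read 4.84 FPKM in the overexpressor and 2.602 in wild type, with the gene at 16.5 and 14.99. A locus 53 bp beyond the 3′ end of EBF2, an F-box gene (chromosome 8, 42767756 to 42768170), read 6.17 FPKM and was listed at 0 in wild type, with the gene at 43.5 and 76.9.

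Among named genes that moved at least 2-fold, some carried a locus that also moved at least 2-fold in that direction. KRP1, an inhibitor of cyclin-dependent kinases, read 44.96 FPKM in the overexpressor and 16.1 in wild type, and a locus inside it (chromosome 9, 66347429 to 66347751) 11.3 and 3.24 on 20 fragments and 3. CO3, a CONSTANS-like gene of the family known for daylength responses, read 8.27 and 0.821 FPKM, and a locus 1169 bp beyond its 5′ end (chromosome 2, 45894999 to 45895522) 4.32 and 0.824. GR, a glutathione reductase gene, read 87.7 FPKM in the overexpressor and 211 in wild type. A locus 1223 bp beyond its 3′ end (chromosome 9, 59789341 to 59789718) read 3.13 and 11.2 FPKM.

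At others the locus differed less than 2-fold in the direction of the gene. A second GR locus, across the edge of the gene (59790348 to 59791150), read 9.46 FPKM in the overexpressor and 16.9 in wild type. A locus 1329 bp beyond the 3′ end of MSRA5 (chromosome 2, 41830889 to 41831230) read 5.39 and 9.37 FPKM, with the gene at 10.8 and 27.1. SUMO, a gene of the small ubiquitin-like modifier, read 95.6 and 218 FPKM, and the locus inside it (chromosome 9, 52556790 to 52557312) 3.68 and 4.55.

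At others again it did not have the sign of the gene. TFT9, a 14-3-3 protein gene, read 129 FPKM in the overexpressor and 273 in wild type, but a locus inside it (chromosome 7, 59059317 to 59059810) read 9.28 and 9.08, and one 102 bp beyond its 3′ end (59063598 to 59064158) read 2.91 and was listed at 0 in wild type. A locus 632 bp beyond the 3′ end of CHMDH (chromosome 3, 41207217 to 41207708) read 3.59 FPKM in the overexpressor and 1.83 in wild type, with the gene at 71.6 and 318.

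There were 3 loci beside nuclear loci of chromosome 1 that carry names of plastid genes. ATPB, named for a subunit of the plastid ATP synthase, read 6.82 FPKM in the overexpressor and 35.6 in wild type, a difference of −2.22. The locus 410 bp beyond its 3′ end (1848398 to 1848842) read 59.3 FPKM in the overexpressor and 13.6 in wild type, a difference of 2.05 on 208 and 25 fragments. At NDHB1,RPS7-A, named for a plastid NADH dehydrogenase subunit and a plastid ribosomal protein, the gene locus read 2.08 and 9.51 FPKM, and the locus inside it (1892644 to 1892995) 4.91 and 5.21. At NDHJ,NDHK, also named for plastid NADH dehydrogenase subunits, the gene locus read 2.76 and 3.03 FPKM, and the locus 610 bp beyond its 3′ end (1843868 to 1844344) 5.05 and 1.45 on 20 fragments and 3. Reads of the plastid genome and of nuclear copies of it are alike, so these values are uncertain.

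Outside genes, 14 loci differed at least 2-fold in the direction opposite to a gene that also did, 13 of them on the 3′ side. In 69 of the 83 pairs outside genes where both differed by that margin, the direction was the same. In 12 of the 14 the gene was lower and the locus higher in the overexpressor. Over all loci near genes 25.9% were higher and 13.3% lower, and over gene loci 11.6% were higher and 15.0% lower. These shares lean the same way as the 12 of 14, which was not tested against them. Apart from the ATPB locus, the deepest were one 124 bp from Solyc06g071920.2 (chromosome 6, 40697809 to 40698297), at 19.6 FPKM in the overexpressor and 8.77 in wild type on 81 and 19 fragments, and one 1937 bp from Solyc06g076790.1 (chromosome 6, 44089288 to 44089650), at 32.5 and 13.1 FPKM on 76 and 16 fragments. Their genes read 652 and 254 FPKM in the overexpressor, against 1605 and 1388 in wild type. Both loci of Solyc02g068860.1 (chromosome 2, 201 and 697 bp beyond its 3′ end) went the other way, at 1.01 and 0.163 FPKM in the overexpressor, against 6.34 and 6.05 in wild type, with the gene at 5.36 in the overexpressor and 0.930 in wild type. These 2 loci rest on few fragments, 3 and 0 after rounding in the overexpressor and 9 and 8 in wild type. A locus inside Solyc09g082650.2 (chromosome 9, 63766943 to 63767243) read 7.56 FPKM in the overexpressor on 11 fragments and was listed at 0 in wild type, with its gene at 94.3 and 252 FPKM.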

How the data were processed

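RNA-seq expression was deposited by the authors as FPKM per locus for 1 library per genotype, per the file headers. TopHat, which aligns reads across splice junctions, was used, per the submitters' processing notes. The sources used here do not name its version, the assembler, the annotation or the genome build. Spans are end minus start plus 1 on the table's coordinates. The nearest gene locus had the smallest gap, with ties going to the larger overlap. Differences are log2(FPKM + 1), overexpressor minus wild type, for loci averaging 1 FPKM or more, and a difference of 1 counts as 2-fold. With 1 library per genotype no test was possible. A pseudocount of 1 understates the change of low loci. Fragments were recovered from the steps of low FPKM values of unstranded gene-free loci of at least 300 bp, as FPKM times the scaling total times the span less a fitted length offset, and are printed rounded to whole numbers, except 339.8, 2.80 and 7.38. Pairing, agreement and step recovery were tested on simulated data. For step recovery these held whole fragments with a set offset, searched over narrower ranges than in the real fit. That test does not show that the fitted totals and offset are right for the deposited values. Distance bins with under 20 pairs get no correlation.

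Named loci followed a fixed rule: the 8 largest differences each way, the 6 highest means, the 8 widest and 6 closest matches to the gene, 12 beside genes with a symbol, and those at the limits. One locus that the rule names is not reported here. The 14 opposite loci outside genes, the loci inside genes changed at least 4-fold, and the SPY, CTR3, CTR4, NEVER-RIPE, EBF2 and NDHJ,NDHK loci were added after their values were seen, as were the split of overlapping loci and the pairs within a gene. The members and lists were chosen with earlier results of these data known. Sequences were not used here, since no genome of the table's build was at hand. Software was Python 3.11.15 with pandas 2.3.3, numpy 2.4.6, scipy 1.17.1 and matplotlib 3.10.9.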

Additional observations from a re-analysis of the deposited data

How the results depend on the processing

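No paired analysis was possible because each genotype has 1 library and no result comes from a test. Of 178 values recomputed for 13 results under 14 settings, 120 stayed within the margin set for them (the binomial interval for shares, a set factor for counts of loci, the interval of the median for levels), 57 moved further and 1 reversed. Loci at least 2-fold higher and lower numbered 111 and 82 with a pseudocount of 5, 111 and 131 at a mean of at least 5 FPKM, 142 and 91 at a span of at least 500 bp, 133 and 82 without loci overlapping a gene, 111 and 98 with 30 or more fragments, 635 and 80 at equal sums without the 100 most abundant gene loci, and 1372 and 0 at equal sums. The median log2 ratio of locus to gene was, overexpressor then wild type, −1.80 and −2.28 with a pseudocount of 0.1, −1.12 and −1.32 with 5, −1.30 and −1.48 at a mean of at least 5 FPKM, −1.85 and −2.15 at 500 bp, −0.90 and −0.93 without overlapping loci, and −1.35 and −1.54 with 30 or more fragments. In wild type it was −1.84 without the 100 most abundant gene loci, −1.11 at equal sums and −2.11 less than 500 bp from a gene. The share of pairs with the same sign was 63.4% at a mean of at least 5 FPKM (63.1% overlapping, 69.8% apart by less than 500 bp, 63.0% inside, 72.7% beyond the 5′ end) and 64.3% at equal upper quartiles (63.1%, 71.6%, 63.3% and 74.2%, in that order). It was 73.6% without the 100 most abundant gene loci (70.1% overlapping, 83.3% under 500 bp, 75.8% to 1000 bp, 76.4% to 2000 bp, 70.3% inside, 75% beyond the 3′ end, 87.3% beyond the 5′ end) and 98.6% at equal sums (98.6%, 98.96%, 98.3%, 98.3%, 98.6%, 98.4% and 99.1%, in that order). For loci near 2 genes in opposite directions, those inside and outside genes were pooled. The share with the sign of the nearer gene was 100% at a mean of at least 5 FPKM and 86.7% with 30 or more fragments. It was 56.4% of 39 loci without the 100 most abundant gene loci, and 0% at equal sums, where 1 locus was left. The cause of these moves was not tested. At equal sums nearly all loci and genes are higher, so that a shared sign says little there. Leaving out the largest difference, or loci listed at 0, was chosen after seeing the data. At a median of 9 fragments in wild type, single differences rest on few reads.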
